A study of Homo sapiens with 18 samples.

Results

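The genes described here are 10 secreted inflammatory mediators, taken by name as the rows IL6, CXCL8, CXCL1, CXCL2, CXCL3, IL1A, IL1B, CCL2, CSF2 and LIF among the 39496 genes of the expression tables, and each name matched 1 row. In T24 bladder cancer cells 9 of these RNAs were present and the level differed between the replicate numbers. In replicate 2 each of the 9 was above both other replicates with the control siRNA and with both siRNAs against ACAT1. UM-UC-3 bladder cancer cells held far less of most of them and were the line with CCL2 RNA. After knockdown of ACAT1 the calls depended on the fit: with low counts filtered and the replicate number left out, no member passed, and between 0 and 3 members passed per comparison with siNC when libraries of the same replicate number were compared with each other.

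Inflammatory cytokines are induced together when signals from interleukin 1, TNF or microbial products release the transcription factor NF-kB from its inhibitors, and AP-1 and C/EBP factors act at the same promoters. The mRNAs are short-lived, since AU-rich elements and stem-loops mark them for decay. IL1A and IL1B encode interleukin 1, the alarm signal that itself activates NF-kB. IL6 and LIF signal through the shared receptor subunit gp130 to STAT3. CXCL8, CXCL1, CXCL2 and CXCL3 attract neutrophils through the receptor CXCR2, CCL2 attracts monocytes through CCR2, and CSF2 encodes the growth factor GM-CSF for granulocytes and macrophages. Carcinoma cells, including those of the bladder, can secrete these factors themselves.

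RNA-seq libraries had been made from UM-UC-3 and T24, established human lines of bladder transitional cell cancer listed as wild type, after transfection with a negative control siRNA (siNC) or with siACAT1-1 or siACAT1-2, which have different sequences against ACAT1, the mitochondrial acetyl-CoA acetyltransferase. Each of the 6 groups held 3 biological replicates from independent experiments, 18 libraries in all, and the question put to them was what ACAT1 does in bladder cancer cells. The time between transfection and lysis is not given in the sources used here, every group is 1 cell line, and no untransfected cells were analysed here. Total counts ran from 25163490 to 34417230 with a median of 28613163. ACAT1 itself was at 46.0 ± 1.68 RPKM (reads per kilobase of exon scaled to the total count, mean ± SD, n = 3) with siNC in UM-UC-3 and at 3.05 ± 0.703 and 2.16 ± 0.544 with siACAT1-1 and siACAT1-2, and in T24 at 16.2 ± 1.40 against 1.29 ± 0.149 and 0.792 ± 0.122. Of 15 measured urothelial and epithelial markers, KRT8 and KRT18 were present in both lines, between 27.8 and 435 RPKM. GATA3 stayed at or below 0.371 RPKM, the 5 uroplakins at or below 0.660, KRT5 at or below 0.0370 and CDH1 at or below 0.0326. Both lines thus had the simple-epithelial keratins KRT8 and KRT18 and near none of the uroplakins that define the urothelium. KRT19 was far lower in UM-UC-3 than in T24, with values given further below. Summed, the 15 markers were at 130 to 210 RPKM in UM-UC-3 and at 302 to 1101 in T24. As these were bulk samples, fewer cells making an RNA and less RNA per cell cannot be told apart.

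In the genome the members were not spread evenly. CXCL8 (chr4:73740506-73743716, plus strand), CXCL1 (chr4:73869393-73871242, plus strand), CXCL3 (chr4:74036589-74038807, minus strand) and CXCL2 (chr4:74097035-74099293, minus strand) lay within 358.788 kb on chromosome 4, and IL1A (chr2:112773915-112784590) and IL1B (chr2:112829751-112836903), both on the minus strand, within 62.989 kb on chromosome 2 (GRCh38, gene spans of the deposited table). IL6 (chr7:22725884-22732002), CSF2 (chr5:132073790-132076170) and CCL2 (chr17:34255218-34257203) were on plus strands, and LIF (chr22:30240447-30246851) was on a minus strand. CXCL1, CXCL2 and CXCL3 are near-identical paralogs, so the share of reads among these 3 genes is uncertain. Of the exon bases of IL6, 20.7% also belonged to the antisense gene AC073072.5, and of those of LIF 4.41% belonged to the antisense gene RP1-102K2.8.

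The stretches from 100 to 41 bases before the RefSeq start sites of IL6, CXCL8, CXCL1, CXCL2 and CXCL3 are shown. They run 5′ to 3′ on the strand of the gene (GRCh38.p14, 60 bases). Matches to GGNNTTTCC, the letters of an NF-kB site of the kind known at these promoters, are in capitals. These 5 were shown because their promoters held a match, among the 8 members with a promoter at hand. IL1A, IL1B and CSF2 had no match, although their RNAs moved with those of the 5 in T24. CXCL8 lies at chr4:73740469-73740528, IL6 at chr7:22727100-22727159, CXCL1 at chr4:73869293-73869352, CXCL3 at chr4:74038730-74038789 and CXCL2 at chr4:74099236-74099295. Each RefSeq start lies within the deposited span of its gene.
CXCL8: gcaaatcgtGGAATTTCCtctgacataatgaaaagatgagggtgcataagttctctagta
IL6: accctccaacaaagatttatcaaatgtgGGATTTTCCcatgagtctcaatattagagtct
CXCL1: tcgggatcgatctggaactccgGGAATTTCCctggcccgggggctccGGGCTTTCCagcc
CXCL3: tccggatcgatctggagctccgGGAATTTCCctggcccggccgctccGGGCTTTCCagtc
CXCL2: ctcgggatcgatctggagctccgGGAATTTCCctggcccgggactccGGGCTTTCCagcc

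CXCL1, CXCL2 and CXCL3 each carried a pair of matches, and CXCL1 and CXCL3 had the same base at 91.7% of the 60 positions. The match began 91 bases before the start in CXCL8 and 72 bases before it in IL6. Promoters of 300 bases were at hand for 8 members, all but CCL2 and LIF. On either strand GGNNTTTCC was in the promoters of these 5 members and in 6.26% of 35116 promoters. The AP-1 letters TGANTCA, searched the same way, were in the promoters of CXCL8 and IL1A and in 7.71% of all, and in these promoters no match of one motif overlapped a match of the other. The first motif was chosen knowing these promoters, and a match is a description of letters, not of binding.

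**Figure D1:**
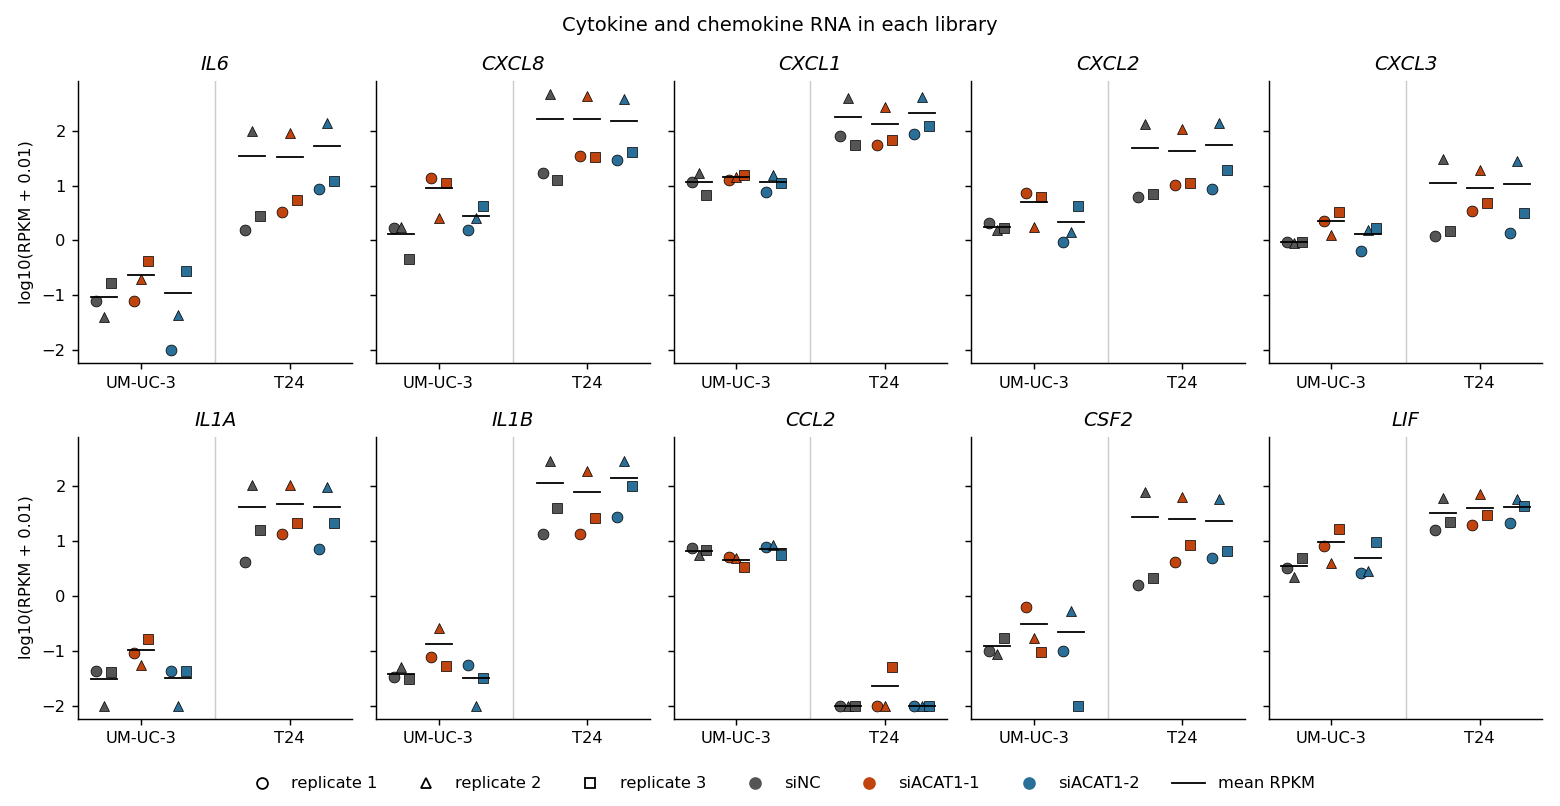
RNA level of each cytokine or chemokine gene in the 18 libraries, as log10(RPKM + 0.01), with UM-UC-3 to the left and T24 to the right of the grey line, the siRNA shown by colour, the replicate number by symbol and the mean RPKM of 3 libraries by a bar. The triangles of replicate 2 stand above the other T24 libraries for all genes but CCL2, which was at 0 in 8 of 9 T24 libraries and between 3.31 and 8.38 RPKM in UM-UC-3.

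With the control siRNA, 9 members were higher in T24 than in UM-UC-3 and CCL2 was higher in UM-UC-3. The test was read for the 6 members that passed the filter on low counts in each line taken alone, IL6, CXCL8, CXCL1, CXCL2, CXCL3 and LIF. Each of these 6 was called lower in UM-UC-3, beside 44.3% of 20144 genes called in either direction (edgeR quasi-likelihood test, adjusted p under 0.05 over all genes tested). IL1A, IL1B and CSF2 passed the filter only through T24 and CCL2 only through UM-UC-3, so for these 4 genes the values are a description with no test.

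CCL2 was at 7.47, 5.55 and 6.90 RPKM in the siNC replicates 1, 2 and 3 of UM-UC-3 and had no count in the 3 of T24, which makes it at least 103-fold higher in UM-UC-3, from the lowest UM-UC-3 library and the highest level that 3 counts would give in 1 T24 library. This bound takes each count as 1 fragment, and with 2 counts per fragment it would be lower. Over the 9 libraries of T24, 2 counts were found, both in siACAT1-1 replicate 3. CCL2 was the member that set UM-UC-3 apart, and the second most abundant there per length, after CXCL1, with medians over 9 libraries of 5.61 and 12.8 RPKM.

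The neutrophil chemokines were expressed in both lines. CXCL1 was at 11.4, 17.0 and 6.69 RPKM in the siNC replicates of UM-UC-3 and at 78.9, 396 and 54.2 in those of T24 (log2 difference -3.83 ± 0.77 SE, adjusted p = 7.5e-04). CXCL8 was at 1.68, 1.73 and 0.456 RPKM in UM-UC-3 and at 16.9, 471 and 12.9 in T24 (log2 difference -6.90 ± 1.59 SE, adjusted p = 0.0021). For both genes the T24 libraries spread far more than those of UM-UC-3. CXCL2 was at 2.08, 1.52 and 1.71 RPKM in UM-UC-3 and at 6.24, 130.4 and 6.92 in T24 (log2 difference -4.66 ± 1.32 SE, adjusted p = 0.0086). CXCL3 was at 0.926, 0.899 and 0.934 RPKM against 1.18, 30.4 and 1.48 (log2 difference -3.48 ± 1.18 SE, adjusted p = 0.0235). CXCL3 was therefore close in the lines outside T24 replicate 2.

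The interleukin 1 genes were T24 genes. IL1B was at 13.4, 289 and 40.2 RPKM with siNC in T24 and had 2 to 4 counts per library in UM-UC-3. IL1A was at 4.24, 106 and 16.1 RPKM in T24 and had 0 to 2 counts in UM-UC-3. CSF2, the growth factor, was at 1.55, 80.2 and 2.08 RPKM in T24 and had 2 to 4 counts in UM-UC-3. For all 3 genes replicate 1 was the lowest siNC library of T24. Scaled to the total counts, it was 205 times (95% interval 55.9 to 1711) the 3 siNC libraries of UM-UC-3 together for IL1A, 474 times (185 to 1746) for IL1B and 13.9 times (4.69 to 55.8) for CSF2. The exact binomial intervals cover counting error only and take 2 counts as 1 fragment, since 74.4% of all counts from 1 to 10 were even.

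The gp130 cytokines followed the same order. IL6 was at 1.53, 100.4 and 2.84 RPKM with siNC in T24 and at 0.0685, 0.0301 and 0.156 in UM-UC-3, where it had 2 to 10 counts (log2 difference -8.55 ± 2.04 SE, adjusted p = 0.0026). LIF was at 16.3, 60.5 and 21.9 RPKM in T24 and at 3.26, 2.25 and 4.93 in UM-UC-3 (log2 difference -3.18 ± 0.66 SE, adjusted p = 9.7e-04). Without the 3 libraries of T24 replicate 2, 5 of the 6 members still passed, and the log2 difference became -4.66 for IL6, -3.55 for CXCL8, -2.53 for CXCL1, -1.91 for CXCL2 and -2.47 for LIF. CXCL3 no longer passed then (log2 difference -0.54, adjusted p = 0.334), nor without any 1 of the 3 siNC libraries of UM-UC-3 (adjusted p from 0.0666 to 0.0677), and without siNC replicate 2 of T24 alone neither CXCL3 (-0.55, adjusted p = 0.680) nor CXCL2 (-1.92, adjusted p = 0.158) passed. With all libraries kept, limma did not call CXCL3 (log2 difference -1.95, adjusted p = 0.169).

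T24 replicate 2 stood apart. Its 3 libraries held 1354, 1606 and 1664 RPKM summed over the 10 members, against 140.3 to 373 in the 6 other T24 libraries, and the members took 0.288 to 0.348% of its counts against 0.0272 to 0.0853%. A test of the replicate number within T24, with the siRNA as a term, called 9 of the 9 members it could test, CCL2 being too low (adjusted p from 2.6e-08 to 9.4e-06), while it called 44.0% of 18116 genes. Replicate 2 was the highest number for all 9, against 20.8% of genes called with number 2 highest. For each of the 9 all 3 libraries of replicate 2 were above the 6 other T24 libraries, which held for 17.9% of 18392 genes with at least 10 counts in 3 T24 libraries. Of the other numbers, replicate 1 had the lowest level with every siRNA for IL6, CXCL2, CXCL3, IL1A, IL1B, CSF2 and LIF, but not for CXCL8 and CXCL1.

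IL6 and CSF2 differed most between the numbers. IL6 was at 3.34, 91.4 and 5.53 RPKM in the siACAT1-1 replicates 1, 2 and 3 and at 8.65, 140.4 and 12.2 in those of siACAT1-2, beside the siNC values above. Its replicate 2 was 4.51 above the mean of the other numbers on the log2 scale. CSF2 was at 4.22, 63.8 and 8.38 RPKM with siACAT1-1 and at 4.85, 58.7 and 6.64 with siACAT1-2, and replicate 2 was 3.97 above the others on the log2 scale. The lowest library of replicate 2 was 7.46-fold above the highest other T24 library for IL6 and 7.0-fold for CSF2.

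Among the neutrophil chemokines CXCL8 had the widest gap. CXCL8 was at 35.2, 431 and 33.4 RPKM with siACAT1-1 and at 29.2, 374 and 41.7 with siACAT1-2, which put the lowest library of replicate 2 8.98-fold above the highest other library. CXCL1, the member with the highest median RPKM in T24, was at 56.1, 268 and 68.6 RPKM with siACAT1-1 and at 87.3, 420.0 and 123 with siACAT1-2. The log2 difference of replicate 2 from the other numbers was 3.96 for CXCL8, 3.58 for CXCL2, 3.45 for CXCL3 and 2.14 for CXCL1, so the gene with the highest level outside replicate 2 had the smallest gap of these 4. CXCL2 was at 10.3, 107 and 11.2 RPKM with siACAT1-1 and at 8.74, 138 and 19.3 with siACAT1-2.

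The interleukin 1 genes and LIF also had replicate 2 highest with every siRNA. IL1B was at 13.6, 193 and 26.9 RPKM with siACAT1-1 and at 28.1, 291 and 100.5 with siACAT1-2, and IL1A was at 13.6, 107 and 21.7 and at 7.24, 98.9 and 21.9. The log2 difference of replicate 2 from the other numbers was 3.07 for IL1B and 3.0 for IL1A. Replicate 3 lay above replicate 1 for both genes with every siRNA, and the lowest library of replicate 2 was 1.92-fold above the highest other library for IL1B and 4.52-fold for IL1A. LIF, at 19.3, 72.6 and 29.4 RPKM with siACAT1-1 and 21.7, 57.7 and 44.0 with siACAT1-2, had the smallest gap of the 9, 1.31 on the log2 scale and 1.31-fold between the nearest libraries. As deviations from the group means, all 36 pairs of the 9 genes varied together over the 9 T24 libraries (r from 0.896 to 0.993), a description in which the libraries of replicate 2 weigh most.

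**Figure D2:**
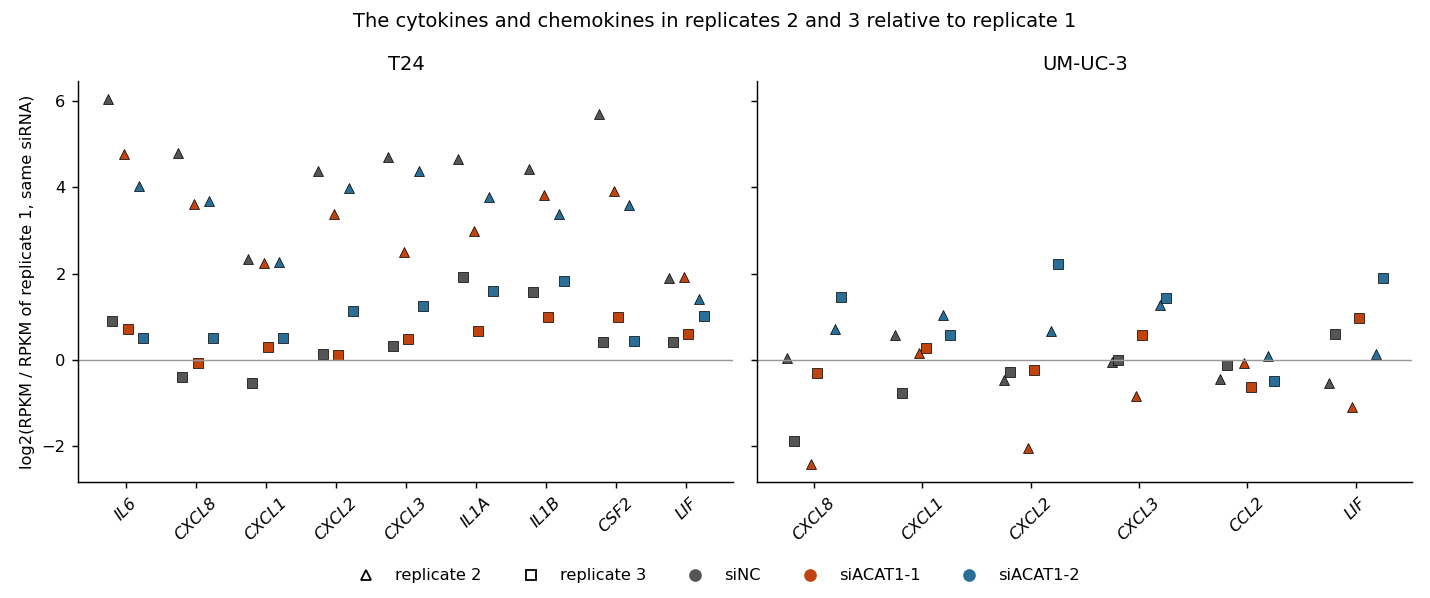
Level in replicate 2 (triangles) and replicate 3 (squares) relative to replicate 1 with the same siRNA, as log2 of the RPKM ratio, in T24 (left, 9 genes) and UM-UC-3 (right, the 6 genes with a mean above 0.5 RPKM), with the siRNA shown by colour. All 27 triangles of T24 lie above the line at 0, whereas in UM-UC-3 both symbols lie on either side of it.

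The genes that act around the members moved with T24 replicate 2 as well, by lists chosen with earlier results of these data known and beside 44.0% of all genes called by replicate number and 20.8% called with number 2 highest. Of 20 NF-kB subunits and regulators, 17 were called by replicate number and 14 of them had replicate 2 highest, among them the NF-kB targets NFKBIZ (2.81 above the other numbers on the log2 scale), TNFAIP3 (1.99) and NFKBIA (1.04) and the subunits RELB (1.84) and NFKB2 (1.23), whereas BCL3 (-1.0) and TRAF2 (-0.40) were lower. RELA, the main activating subunit, was not called. All 6 other NF-kB response genes that could be tested were called with replicate 2 highest, led by PTGS2 (4.24), the enzyme of prostaglandin synthesis, and BCL2A1 (3.59), an inhibitor of cell death. Of 11 AP-1 and C/EBP factors, 8 were called and all 8 had replicate 2 highest, with ATF3 at 3.88 and EGR1 at 2.68. Of 14 other cytokines and chemokines tested, 11 were called and 8 had replicate 2 highest (CCL20 2.96, IL24 2.91, CXCL5 2.79, IL11 2.67), while IL18 (-1.56), IL15 (-1.11) and MIF (-0.58) were lower. TNF was not called, and neither were 6 of 7 genes of JAK-STAT3 signalling, the exception being SOCS3 (0.35). Among the regulators of mRNA decay, ZC3H12A (1.26), ZFP36 (0.69) and ZFP36L1 (0.45) were higher and ZFP36L2 (-0.99), HNRNPD (-0.55) and ELAVL1 (-0.44) lower.

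Some measures that are not of inflammation also set replicate 2 of T24 apart. Mitochondrial genes took 3.01 to 3.54% of its counts against 4.18 to 5.28% in the other T24 libraries, and of 9 urothelial and epithelial markers tested 6 were called. KRT19 (-2.77 on the log2 scale), FOXA1 (-1.65), KRT8 (-1.61), KRT7 (-1.50) and KRT18 (-1.03) were lower in replicate 2 and EPCAM (0.79) was higher. The 10 measured of 11 leukocyte markers summed to 0.180 to 0.367 RPKM in replicate 2 and to 0.208 to 0.431 in replicates 1 and 3, with PTPRC, LYZ and CD3E at or below 0.0329 RPKM in every T24 library. Leukocyte RNA was therefore near 0 in all of them. The 7 fibroblast markers summed to 1.94 to 2.37 RPKM against 1.99 to 2.88, and the 5 endothelial markers to 0.0924 to 0.116 RPKM against 0.0428 to 0.120. What set the libraries of replicate 2 apart is not given in the sources used here. The part of the mitochondrial share and the epithelial markers in the result was not tested.

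**Figure D3:**
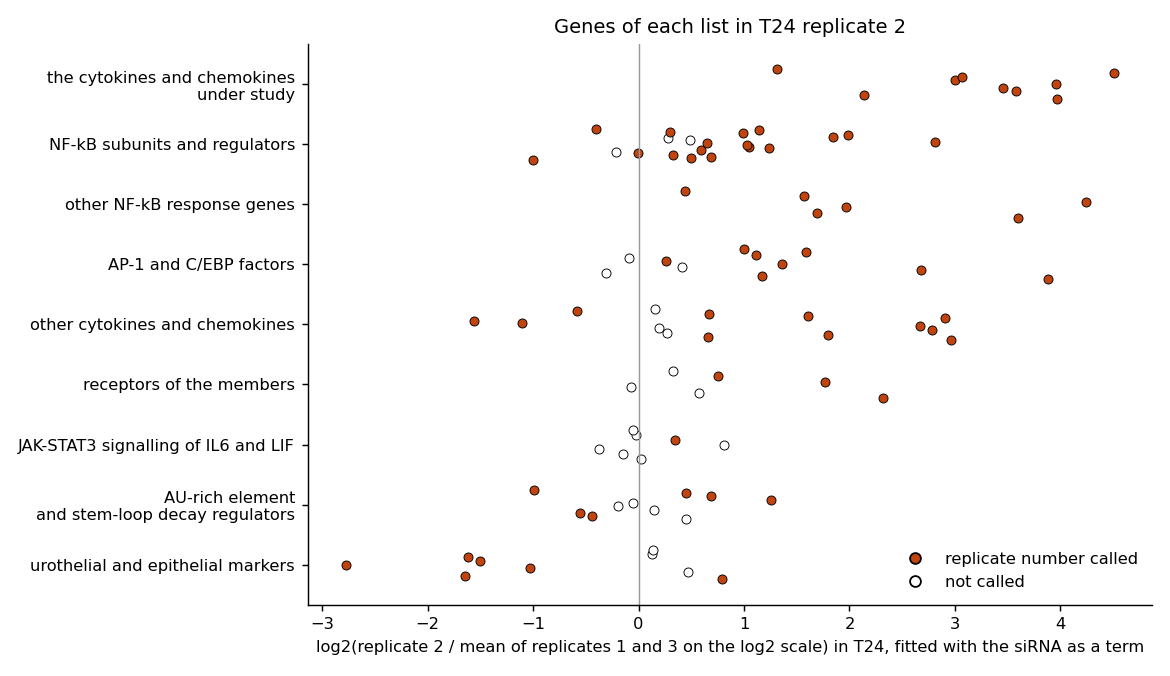
Fitted log2 difference of T24 replicate 2 from the mean of replicates 1 and 3 for each tested gene of 9 lists, filled where the replicate number was called (edgeR, adjusted p under 0.05). The 9 cytokines and chemokines under study lie between 1.31 and 4.51, while KRT19 at -2.77 and PTGS2 at 4.24 mark the range of the other lists.

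In UM-UC-3 the replicate number mattered less and not in the same way. The test called 3 of the 7 members it could test, against 31.5% of 18314 genes. LIF and IL6 were called with replicate 3 highest, as were 14.5% of the genes tested, and CXCL1 was called with replicate 2 highest, as were 12.4% of the genes tested. LIF was at 3.26, 2.25 and 4.93 RPKM in the siNC replicates 1, 2 and 3, at 8.31, 3.93 and 16.4 with siACAT1-1 and at 2.57, 2.84 and 9.55 with siACAT1-2 (log2 range of the numbers 1.62, adjusted p = 2.6e-05). IL6 had only 0 to 26 counts per library (adjusted p = 0.0163). CXCL1 was at 11.4, 17.0 and 6.69 RPKM with siNC, at 12.8, 14.5 and 15.5 with siACAT1-1 and at 7.51, 15.5 and 11.3 with siACAT1-2 (adjusted p = 0.0405). Its call was lost without siNC replicate 2, siACAT1-1 replicate 1 or siACAT1-2 replicate 2 (adjusted p from 0.0666 to 0.336), and that of IL6 without siACAT1-1 replicate 1 or 3 or siACAT1-2 replicate 3 (adjusted p from 0.0651 to 0.134). With all libraries in the fit, CXCL1 was not called by DESeq2 (adjusted p = 0.256) or limma (adjusted p = 0.196). CXCL2, with an adjusted p of 0.0628, did not pass. Of 15 pairs of the 6 members with the highest levels here, 9 varied together over the 9 libraries and 6 varied oppositely (r from -0.716 to 0.839), again a description.

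The knockdown of ACAT1 was compared with siNC in each line and for each siRNA. With low counts filtered and the replicate number not in the fit, no member passed by edgeR in any of the 4 comparisons. Of all genes, 0.00993% (siACAT1-1 in UM-UC-3), 0.0546% (siACAT1-2 in UM-UC-3), 0.124% (siACAT1-1 in T24) and 0.268% (siACAT1-2 in T24) were called. In each line alone, 7 members passed the filter in UM-UC-3 and 9 in T24. The others entered the fit only through the other line, so for them the outcome is not a test. At an unadjusted p under 0.05 there was 1 member, with siACAT1-1 in UM-UC-3, and 0 in the other 3 comparisons. DESeq2, which gave a p for 8 members, and limma called 0 as well, with 2 and 1 members at an unadjusted p under 0.05 in that same comparison and 0 in the others. With no filter on low counts and no block, edgeR called 5 members with siACAT1-1 in UM-UC-3 (CXCL8, LIF, CXCL2, CXCL3 and IL1B) and 1 with siACAT1-2 there (CXCL8), all higher, and 0 in T24, beside 0.423%, 0.147%, 1.17% and 0.456% of genes. IL1B did not pass the filter in UM-UC-3 alone. It had 8 counts summed over the siNC libraries there and 34 over those of siACAT1-1, 24 of them in replicate 2. In that fit the SE of the CXCL8 difference with siACAT1-1 was 0.24, against 1.35 with the filter. With the replicate number as a block, 3, 0, 1 and 2 members were called in that order, all higher after knockdown, beside 3.06%, 1.36%, 13.9% and 8.48% of all genes. The 1 member with siACAT1-1 in T24, of 9 that could be tested there, was below the share of all genes. In the blocked fit no member was called with both siRNAs in 1 line, whereas CXCL8 was in UM-UC-3 with no filter.

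In UM-UC-3, CXCL8, LIF and CXCL2 were higher with siACAT1-1 than with siNC when replicate numbers were matched. CXCL8 was at 13.8, 2.59 and 11.1 RPKM in the siACAT1-1 replicates 1, 2 and 3 against 1.68, 1.73 and 0.456 with siNC, so that the groups did not overlap. With siACAT1-2 CXCL8 was at 1.54, 2.55 and 4.24 RPKM, which overlapped siNC. The siACAT1-1 level was 8.20, 1.50 and 24.4 times that with siNC within the 3 numbers, and the blocked log2 difference was 2.66 ± 0.50 SE (edgeR adjusted p = 0.0074). For LIF, at the levels given above, the ratio was 2.55, 1.75 and 3.32 (log2 difference 1.31 ± 0.21 SE, adjusted p = 0.0025). CXCL2 was at 7.25, 1.78 and 6.16 RPKM with siACAT1-1 and at 0.910, 1.44 and 4.23 with siACAT1-2, against 2.08, 1.52 and 1.71 with siNC (siACAT1-1 log2 difference 1.39 ± 0.37 SE, adjusted p = 0.0445). In replicate 2 all 3 genes had their smallest ratio.

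The remaining members of UM-UC-3 did not pass. CXCL3 was at 2.24, 1.26 and 3.33 RPKM with siACAT1-1 and at 0.631, 1.52 and 1.71 with siACAT1-2, against 0.899 to 0.934 with siNC, so the siACAT1-1 libraries were all above those of siNC, as for CXCL8 and for 5.77% of 18542 genes. CCL2 was at 5.14, 4.92 and 3.31 RPKM with siACAT1-1 and at 7.86, 8.38 and 5.61 with siACAT1-2, against 5.55 to 7.47 with siNC. The siACAT1-1 libraries were thus all below those of siNC for CCL2 (blocked log2 difference -0.60 ± 0.19 SE, edgeR adjusted p = 0.0931). The share of all genes lying below in this way was not counted. IL1A had at most 10 counts in any UM-UC-3 library, IL1B 24 and CSF2 14. Over the 7 members that could be tested in UM-UC-3 alone, the median blocked log2 difference was 1.31 with siACAT1-1, 6 of them above 0, and 0.18 with siACAT1-2, also with 6 above 0, against -0.01 and 0.00 over all genes.

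In T24 the block called IL1A with siACAT1-1 and IL6 and IL1B with siACAT1-2. IL6 with siACAT1-2 was 5.65, 1.40 and 4.31 times its siNC level in replicates 1, 2 and 3 (log2 difference 1.58 ± 0.26 SE, adjusted p = 6.6e-04). IL1B with siACAT1-2 was 2.09, 1.01 and 2.5 times its siNC level (log2 difference 0.84 ± 0.21 SE, adjusted p = 0.0150), and IL1A with siACAT1-1 was 3.21, 1.01 and 1.35 times (log2 difference 0.68 ± 0.19 SE, adjusted p = 0.0235). Replicate 2, where the members were highest with every siRNA, had the ratio nearest to 1 in all 3 cases. Over the 9 members present in T24 the median blocked log2 difference was 0.49 with siACAT1-1, 7 of them above 0, and 0.62 with siACAT1-2, all 9 above 0, against 0.00 and 0.01 over all genes. Without the block the medians were -0.10 and 0.22, with 3 and 6 of the 9 above 0.

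**Figure D4:**
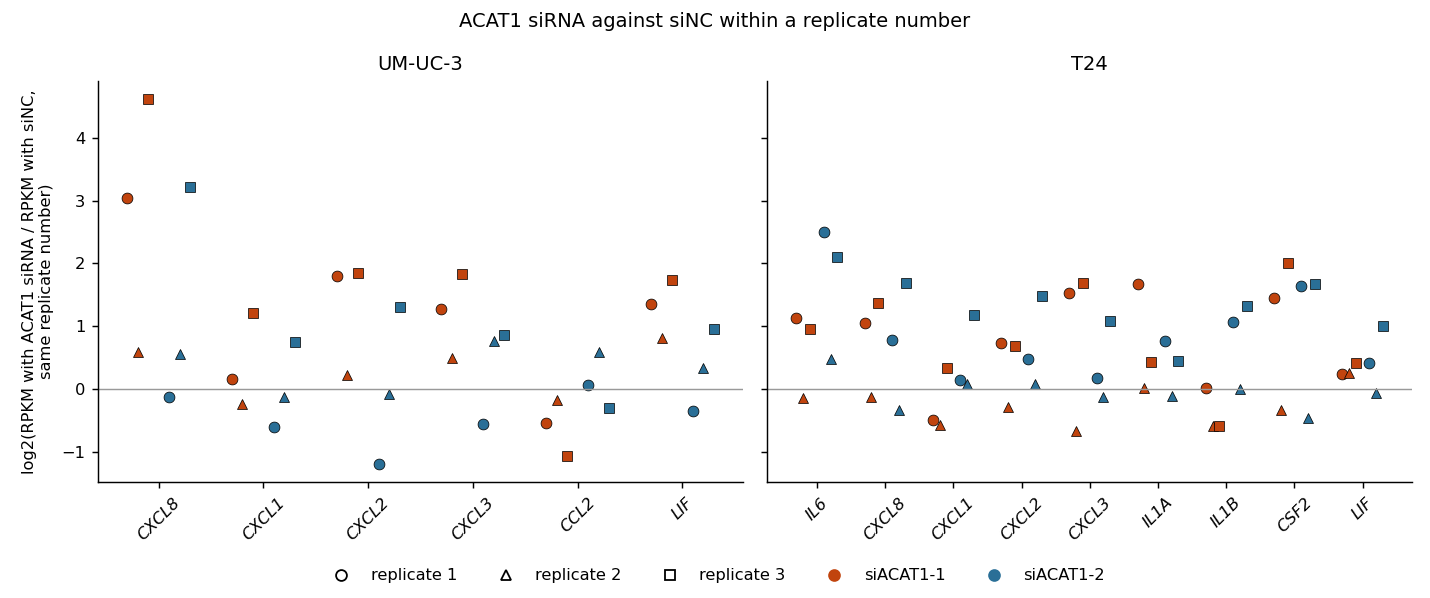
Level with siACAT1-1 or siACAT1-2 relative to siNC of the same replicate number, as log2 of the RPKM ratio, for 6 genes of UM-UC-3 and 9 of T24, with the replicate number shown by symbol. In T24 the triangles of replicate 2 stand for ratios between 0.629 and 1.40, while the circles and squares of replicates 1 and 3 reach a ratio of 5.65. In UM-UC-3 CXCL8 reaches a ratio of 24.4 with siACAT1-1 in replicate 3.

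With the 3 libraries of T24 replicate 2 left out and the block kept, a fit chosen after seeing the data, 4 members passed with siACAT1-1 in T24 (CSF2, CXCL3, IL1A and IL6, log2 differences 1.73, 1.59, 1.04 and 1.02) and 4 with siACAT1-2 (IL6, CSF2, IL1B and LIF, 2.30, 1.66, 1.21 and 0.71), beside 18.3% and 8.84% of all genes. These rest on replicates 1 and 3. CXCL8 was 2.08 and 2.60 times its siNC level with siACAT1-1 in replicates 1 and 3 and 0.915 times in replicate 2. CSF2 was 2.72 and 4.02 times in replicates 1 and 3 and 0.796 times in replicate 2.

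For the mean of the 4 comparisons, 0 members passed with the filter and without the block (0.223% of genes called, and 0 members at an unadjusted p under 0.05 by edgeR, DESeq2 or limma). With the block CXCL8 (log2 difference 1.26 ± 0.30 SE, edgeR adjusted p = 0.0080) and LIF (0.60 ± 0.13 SE, adjusted p = 0.0041) were higher, beside 12.4% of genes. They were 2 of the 6 members that passed the filter in each line alone. With no filter CXCL8 and LIF were called without the block (0.97% of genes). Without T24 replicate 2, 6 members were called higher with the block (15.6% of genes) and 1, CXCL8, without it (2.13%). The 6 called with the block were CXCL8, CSF2, IL6, CXCL3, CXCL2 and LIF, with log2 differences of 1.54, 1.36, 1.24, 0.99, 0.82 and 0.67. Of these, CSF2 did not pass the filter on low counts in UM-UC-3 alone. Whether the knockdown acted differently in the lines was tested directly: 0 members passed without the block, where 0.0% of genes did, and 0 with it, where 0.104% did. No member reached an unadjusted p under 0.05 there without the block, by edgeR, DESeq2 or limma.

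The siRNAs were also compared with each other, since they share a target and differ in sequence. Without the block no member differed in either line, beside 0.0496% of genes in UM-UC-3 and 0.968% in T24 (at an unadjusted p under 0.05, 0 members by edgeR and, in UM-UC-3, 1 each by DESeq2 and limma, which called 0 too). With the block 4 members differed in UM-UC-3, where 8.15% of genes did. LIF (siACAT1-2 minus siACAT1-1 on the log2 scale, -1.0 ± 0.21 SE, adjusted p = 0.0064), CXCL8 (-1.63 ± 0.47, adjusted p = 0.0347) and CXCL2 (-1.22 ± 0.37, adjusted p = 0.0429) were lower with siACAT1-2, and CCL2 was higher (0.67 ± 0.19, adjusted p = 0.0344). In T24 3 members were higher with siACAT1-2, where 14.7% of genes differed: IL1B (1.22 ± 0.21, adjusted p = 6.6e-04), IL6 (1.09 ± 0.25, adjusted p = 0.0063) and CXCL1 (0.73 ± 0.21, adjusted p = 0.0255). ACAT1 itself was lower with siACAT1-2 in both lines, by -0.54 ± 0.16 and -0.71 ± 0.17 on the log2 scale with the block (adjusted p = 0.0348 and 0.0093). Without the block the ACAT1 difference did not pass in either line (edgeR adjusted p = 0.465 in UM-UC-3 and 0.139 in T24). A direct test of whether the difference between the siRNAs differed between the lines called 0 members without the block (0.0% of genes, and at an unadjusted p under 0.05 0 members by edgeR and DESeq2 and 1 by limma) and IL1B with it (1.1% of genes), a gene that did not pass the filter on low counts in UM-UC-3 alone.

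Around the members, the mean of the 4 knockdown comparisons gave the following counts with the block, beside 12.4% of all genes. Of 20 NF-kB subunits and regulators, 5 were higher and none lower, led by NFKBIZ (0.87 ± 0.19 SE on the log2 scale, adjusted p = 0.0044), BIRC2 (0.35 ± 0.09, adjusted p = 0.0111) and TNFAIP3 (0.56 ± 0.15, adjusted p = 0.0180). Of 7 receptor genes tested among 11, 5 were higher: IL1RAP, the accessory chain of the interleukin 1 receptor (0.66 ± 0.09, adjusted p = 1.1e-04), IL6R, IL1R1, IL6ST, which encodes gp130, and LIFR. IL1RAP was also called without the block, the only gene of these lists to be so (0.66 ± 0.11, adjusted p = 0.0189). Higher too were 3 of 7 other NF-kB response genes (IER3 0.53, BCL2A1 1.19 and SOD2 0.42), 3 of 11 AP-1 and C/EBP factors (JUNB 0.66, EGR1 1.36 and JUN 0.39), 2 of 7 genes of JAK-STAT3 signalling (SOCS3 0.36 and STAT3 0.25) and 1 of 15 other cytokines (CSF1 0.36). Of 10 decay regulators, HNRNPD was lower (-0.18), and of 10 epithelial markers KRT18 (-0.31), KRT7 (-0.33) and KRT8 (-0.19) were lower. None of the 2 leukocyte, 5 fibroblast or 2 endothelial markers tested was called.

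The lines differed in the same lists with siNC, beside 44.3% of all genes. Of the NF-kB list 10 of 20 genes were lower in UM-UC-3 and 3 higher, with TNFAIP3 (-4.69 ± 0.74 SE on the log2 scale, adjusted p = 8.2e-05), NFKBIZ (-3.56 ± 1.09) and TRAF1 (-2.40 ± 0.67) furthest apart. Other NF-kB response genes were lower in 4 of 7 cases, ICAM1 being at most 0.0567 RPKM in UM-UC-3 and 6.99 to 58.7 in T24, and higher in 1. Other cytokines and chemokines were lower in 6 of 15 cases, CXCL5 and CSF3 being at most 0.0881 RPKM in UM-UC-3 and 8.22 to 162 in T24, and higher in 1. AP-1 and C/EBP factors were lower in 4 of 11 cases (FOSB -4.94 ± 0.65) and higher in 1, and of the decay regulators 3 of 10 were lower, including ZC3H12A (-3.05 ± 0.57), the nuclease that degrades IL6 mRNA. Among the receptors IL6R (-2.24 ± 0.73) and IL1RAP (-0.71 ± 0.18) were lower in UM-UC-3 and LIFR (1.12 ± 0.25) was higher. SOCS3 was lower (-1.36 ± 0.28) and 3 of 7 JAK-STAT3 genes were higher. Of 10 epithelial markers 6 were lower in UM-UC-3, with KRT19 at 0.0554 to 0.172 RPKM there and 1.56 to 31.8 in T24, while 2 of 5 fibroblast markers (COL3A1 1.80 ± 0.25 and PDGFRB 1.75 ± 0.45) and both tested endothelial markers (TEK and PECAM1, at most 0.236 RPKM in any library) were higher, and neither tested leukocyte marker passed. Genes near 0 in one line passed the filter through the other, so these counts are in part fixed by it.

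Outside the members, the genes most like each of them were found by the correlation of log2 levels over the 18 libraries after subtracting group means, a description that T24 replicate 2 dominates. IL6 was most like LCN2 (r = 0.991), which encodes the secreted iron-binding protein lipocalin, VGF (0.978) and its antisense neighbour AC073072.5 (0.971). LIF was most like its antisense neighbour RP1-102K2.8 (0.986), CDCP1 (0.982) and NUB1 (0.970). AC073072.5 and RP1-102K2.8 share part of the exon bases of IL6 and LIF, and the strand setting of the counting is not given in the sources used here. Reads in the shared bases therefore cannot be assigned between a member and its antisense neighbour. CXCL8 was most like EDC3 (0.976), HBEGF (0.969), an EGF receptor ligand, and SLC36A1 (0.958), and CXCL2 was most like EREG (0.978), another EGF receptor ligand, ITPRIP (0.971) and RBM48 (0.970). IL1A was most like NAMPT (0.969), SNX9 (0.969) and CHMP1B (0.963), and IL1B like RP11-575F12.3 (0.945), PTX3 (0.935), a secreted pattern-recognition protein, and NPPA-AS1 (0.927). For CXCL1 the closest genes were NOP10 (0.963), DDI2 (0.962) and KRR1 (0.945), for CXCL3 TSC22D1 (0.967), ANKRD42 (0.964) and LAT2 (0.964), and for CSF2 VPS33A (0.946), TANK (0.928) and RP5-864K19.4 (0.926). CCL2, which varied in UM-UC-3 alone, had TPMTP1 (0.933), RP11-298I3.6 (0.851) and UNC45A (0.849).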

How the data were processed

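Stranded, UMI-tagged mRNA libraries were sequenced on an Illumina NovaSeq. Per the labels and the study's methods, the authors trimmed with Trimmomatic 0.36, aligned to GRCh38 by STAR 2.5.3 and counted exon reads using featureCounts of Subread 1.5.1. They deposited the counts per gene and, from them, RPKM values. The strand setting and whether UMIs were used to remove duplicates are not given in the sources used here. RPKM recomputed from the deposited counts and gene lengths differed by at most 6.4e-07 in relative terms. Counts were analysed with edgeR 4.0.16 in R 4.3.3: filterByExpr kept 20144 of 39496 genes, followed by TMM factors, a model of 6 groups and the quasi-likelihood test, with Benjamini-Hochberg adjustment over all genes tested and calls at an adjusted p under 0.05. SE is the log2 difference over the root of F. In tests of the replicate number each line was fitted alone with siRNA and number as terms. Biological replicates came from independent experiments.

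The labels do not say what a replicate number marks. Within each line all 9 same-number pairs of deviations from group means correlated across genes (r from 0.115 to 0.576 in UM-UC-3 and from 0.356 to 0.686 in T24). Pairs of different numbers ran from -0.545 to 0.269 in UM-UC-3, so the ranges overlapped there, and from -0.567 to 0.210 in T24, where they did not. The numbers were taken from the data to pair libraries within a line, and the fit with the number as a block is given beside the one without it. Between lines the same-number pairs did not correlate in this way (from -0.327 to 0.211), and each block lies within 1 line. Alternatives were RLE size factors, no filter on low counts, DESeq2 1.42.0, limma 3.58.1 on log2(RPKM + 0.1), 1 line alone, each library left out, and, chosen after seeing the data, T24 replicate 2 left out and counts halved. For the comparisons of groups these were run without the block. The block was refitted only without T24 replicate 2 and with counts halved. Calls of the blocked fit were therefore not checked by DESeq2, limma or leaving out 1 library. Members, lists, motifs and comparisons were chosen with earlier results of these data known. Named genes were all members, up to 3 called genes per further list in the mean of the 4 comparisons and up to 3 in the comparison of lines, the 3 genes most like each member, and ACAT1. Genes named in the comparison of T24 replicates, and all called genes of a list in the mean, were chosen after their values were seen. Promoters are from RefSeq (GRCh38.p14). Counts give intervals and floors (3 counts) for counting error only.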

Additional observations from a re-analysis of the deposited data

Results flagged for a closer look

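For IL1B, the direct test of whether the siRNAs differed by another amount in the other line passed with the replicate block, at -3.59 ± 0.85 SE on the log2 scale (siACAT1-2 minus siACAT1-1, UM-UC-3 minus T24, edgeR adjusted p = 0.0413), and did not pass without it. IL1B did not pass the filter on low counts in UM-UC-3 alone and was kept through T24, so the value is given as a description and shows no difference between the lines. In UM-UC-3 it rests on 34 counts summed over the 3 siACAT1-1 libraries, 24 of them in replicate 2, and on 6 over those of siACAT1-2. In T24 IL1B was at 13.6, 193 and 26.9 RPKM with siACAT1-1 and at 28.1, 291 and 100.5 with siACAT1-2.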

How the results depend on the processing

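Of the counts of members called, 75 stayed within 1.5 times and 31 did not, apart from the fits that left out 1 library. The replicate block, which pairs libraries of 1 number within a line, gave 3 members (siACAT1-1 in UM-UC-3), 1 (siACAT1-1 in T24), 2 (siACAT1-2 in T24), 2 (mean), 4 (siRNAs in UM-UC-3), 3 (siRNAs in T24) and 1 (difference of the siRNAs between lines) in place of 0, and with halved counts the same numbers except 3 for the mean. With the block and without T24 replicate 2 they were 4, 4, 4, 6, 5, 3 and 4 beside 5.16, 18.3, 8.84, 15.6, 10.7, 18.8 and 4.82% of all genes, and without that replicate but with no block the mean gave 1. The last 3 settings were chosen after seeing the data. No filter on low counts gave 5 (siACAT1-1 in UM-UC-3), 1 (siACAT1-2 in UM-UC-3), 2 (mean), 1 (difference of the lines), 4 and 1 (siRNAs in UM-UC-3 and T24), 4 (siRNAs between lines) and 6 (UM-UC-3 replicates, which DESeq2 put at 1), beside 0.423, 0.147, 0.97, 0.0734, 0.547, 1.32, 0.243 and 17.3% of all genes. The causes were not tested. The block changed no other call of a comparison with siNC or between lines. Leaving out 1 library gave 2 to 5 members for the UM-UC-3 replicates, 5 without siNC replicate 3. In fits without the block, leaving out 1 library also changed the sign of some log2 differences in T24, never past the test. These were IL1A (siACAT1-1, -1.17 to 2.19), IL1B and IL6 (siACAT1-2, -0.77 to 2.32 and -1.65 to 4.53) and, between the siRNAs, IL1B (-0.23 to 2.70), CXCL1 (-0.25 to 1.67) and IL6 (-1.60 to 3.50). The blocked fit was not run with 1 library left out. Low UM-UC-3 counts limit IL6, IL1A, IL1B and CSF2 there.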
